A study of Glycine max with 6 samples.

Results

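The genes described here are the soybean genes annotated as glycinol 4-dimethylallyl transferase, with Glyma.10G295300 and Glyma.11G210500 also named by identifier because they changed in opposite directions between the pH-treatments. The annotation gave 8 such genes among 48667 genes with a value, and it included both identifiers. Soybean (Glycine max) seedlings were grown in nutrient solution at pH 5.8 (control) or pH 4.2 (acid-treated) for 30 days, and RNA of their roots was sequenced. There were 3 libraries per pH, each from the roots of 2 plants by the paper's methods, and no other treatment or mutation separated the groups. The sample labels name the material YC03-3 and a CTAB-PBIOZOL extraction, while Huachun 6 and an RNeasy kit are named in the paper, and this difference was not resolved. Nothing in the labels says that the plants of a replicate were grown apart from the others, so p-values measure the spread between these libraries only.

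Glyceollins are the main phytoalexins of soybean, antimicrobial pterocarpans that roots and seedlings make after attack by pathogens and under several abiotic stresses. The route starts from phenylalanine, passes through the isoflavone daidzein and a pterocarpan, and reaches glycinol after a hydroxylation step. A membrane-bound prenyltransferase of the UbiA family in the plastid then joins a dimethylallyl group to glycinol, and cytochrome P450 cyclases close the last ring. Soybean holds several related genes of this kind, which differ in the substrate and in the position that they prenylate.

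Protein accessions matched 5 of the 8 genes to RefSeq symbols. Glyma.10G295300 matched G4DT, the enzyme that prenylates glycinol on the way to glyceollin I, and Glyma.10G070100 matched PT10B. Glyma.11G210300 matched PT11A, also listed as IDT1, and Glyma.11G210500 matched PT11C. Glyma.11G210400 carried accessions of both PT11B and PT11C, so that it and Glyma.11G210500 are not fully separate in the annotation. Another accession of Glyma.11G210300 was not matched. In RefSeq's annotation of the assembly Glycine_max_v4.0 the PT11 genes are close neighbours, in the order PT11C, an uncharacterized coding gene, PT11B, a pseudogene and PT11A. RefSeq places them on chromosome 13, while the identifiers of the matched genes name chromosome 11, and this difference was not resolved. The other 3 genes, Glyma.08G274800, Glyma.10G070300 and Glyma.20G245100, were not matched.

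Library totals ranged from 9137226 to 9358750 expected counts. CPM is the unit of counts scaled to a common library total, here with totals adjusted by the TMM method. On this scale 3 counts corresponded to values from 0.312 CPM in control replicate 3 to 0.340 CPM in acid replicate 1. A gene was called changed when edgeR's quasi-likelihood test gave an adjusted p-value under 0.05 and the change was at least 2-fold. Of 33490 genes tested, 187 (0.558%) were called, and leaving out control replicate 2 raised this to 1122. Root endodermis markers, the casparian strip membrane proteins, had all 11 genes present in every library, with a summed level of 78.7 to 98.5 CPM in acid-treated and 30.4 to 96.0 CPM in control roots. Leaf markers were also present. The 34 genes for chlorophyll a-b binding proteins summed to 1146 to 1684 CPM at pH 4.2 and 862 to 1585 CPM at pH 5.8, and the 3 for the rubisco small chain to 398 to 680 and 431 to 576 CPM. No gene was annotated as leghemoglobin. Acid replicate 1 and control replicate 2 stood apart in the genes described below, and values without them are given beside several of these genes. A gene without such a value beside it was not necessarily stable.

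Glyma.10G295300 (G4DT) was the most abundant of the 8 genes in every acid-treated library and low in all controls. It had 3427, 587 and 82 expected counts in acid replicates 1, 2 and 3 and 36, 28 and 29 in control replicates 1, 2 and 3. As CPM these were 388, 62.3 and 9.13 at pH 4.2 against 3.91, 3.00 and 3.02 at pH 5.8. All acid-treated libraries lay above all controls, which were close to each other, while the highest acid-treated library was 42.5-fold above the lowest. The means were 153 ± 205 CPM and 3.31 ± 0.518 CPM (SD, n = 3), and edgeR's estimate of the log2 fold change, given as a description because the gene was chosen for this contrast, was 5.53 with a standard error of 1.22. Without acid replicate 1 the estimate was 3.43, so that the size of the difference rests on that library. The coefficient of variation among acid-treated libraries was 134%, against a median of 14.9% over the 18618 tested genes with a mean of at least 10 CPM, and 25 of those, this gene included, varied as much or more.

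Glyma.11G210500 (PT11C) showed the opposite pattern. It had no count in any acid-treated library, and 84.97, 38 and 170.26 expected counts in control replicates 1, 2 and 3, which are 9.23, 4.08 and 17.7 CPM (mean 10.3 ± 6.88, SD, n = 3). Taking 3 counts over the 3 acid-treated libraries as the limit that a count of 0 allows, the gene was at least 94.6-fold lower at pH 4.2. This limit covers counting error only. It takes as given the division of reads with Glyma.11G210400 described below, and may not hold if acid-treated reads of that gene belong to this one. No fitted fold change is given because one against 0 depends on the prior count. The gene was chosen for this contrast, so its values are a description.

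Glyma.11G210400, its neighbour by identifier, was also low in every acid-treated library. It had 4, 6 and 4 expected counts at pH 4.2 and 156.03, 19 and 171.74 at pH 5.8, or 0.453, 0.637 and 0.445 CPM against 16.9, 2.04 and 17.9 CPM. The groups did not overlap, and control replicate 2 was far below the other controls. The log2 fold change was −4.55 with a standard error of 0.82, which was not called (edgeR's adjusted p = 0.0644). Without control replicate 2 it was −5.04 and was called (edgeR's adjusted p = 0.00100), and DESeq2, run on all 6 libraries, gave an adjusted p of 8.33e-07. Some reads of this gene were divided with Glyma.11G210500, as described below, and that gene was chosen by this contrast. These p-values are therefore not independent of that choice.

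The fractional values of these neighbours add up to whole numbers, which is how RSEM records reads that it divides between similar genes, so the split between them is uncertain. Their sum is not affected by that split. It was 4, 6 and 4 counts at pH 4.2 and 241, 57 and 342 at pH 5.8. In CPM the sum averaged 0.512 ± 0.108 in acid-treated and 22.6 ± 15.1 in control roots (SD, n = 3), a ratio of 44.2 in favour of the control. Glyma.11G210500 took 35.3%, 66.7% and 49.8% of the sum in control replicates 1, 2 and 3.

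The third gene of this group, Glyma.11G210300 (PT11A), was low at both pH values. It had 1.25, 0.955 and 0.223 CPM in acid-treated and 2.50, 0.965 and 3.23 CPM in control roots, and the groups overlapped. Its log2 fold change of −1.45 (standard error 0.67) was not called (edgeR's adjusted p = 0.451). Glyma.20G245100, which has no RefSeq symbol here, ran in the other direction with 9.74, 4.46 and 1.56 CPM at pH 4.2 and 1.95, 0.751 and 3.12 CPM at pH 5.8. These groups overlapped as well, and the log2 fold change of 1.42 (standard error 0.70), or 0.63 without acid replicate 1, was not called (edgeR's adjusted p = 0.486). Its acid-treated libraries had the same order as those of Glyma.10G295300, with replicate 1 highest and replicate 3 lowest. So had those of Glyma.11G210300, and 22.5% of all genes tested had this order.

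The remaining 3 genes were at the limit of detection and did not pass the filter on low counts. Glyma.10G070100 (PT10B) had no count at pH 4.2 and 1, 2 and 3 counts in control replicates 1, 2 and 3. Glyma.08G274800 had 4 counts and Glyma.10G070300 had 1, in both cases in acid replicate 1 alone.

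**Figure D1:**
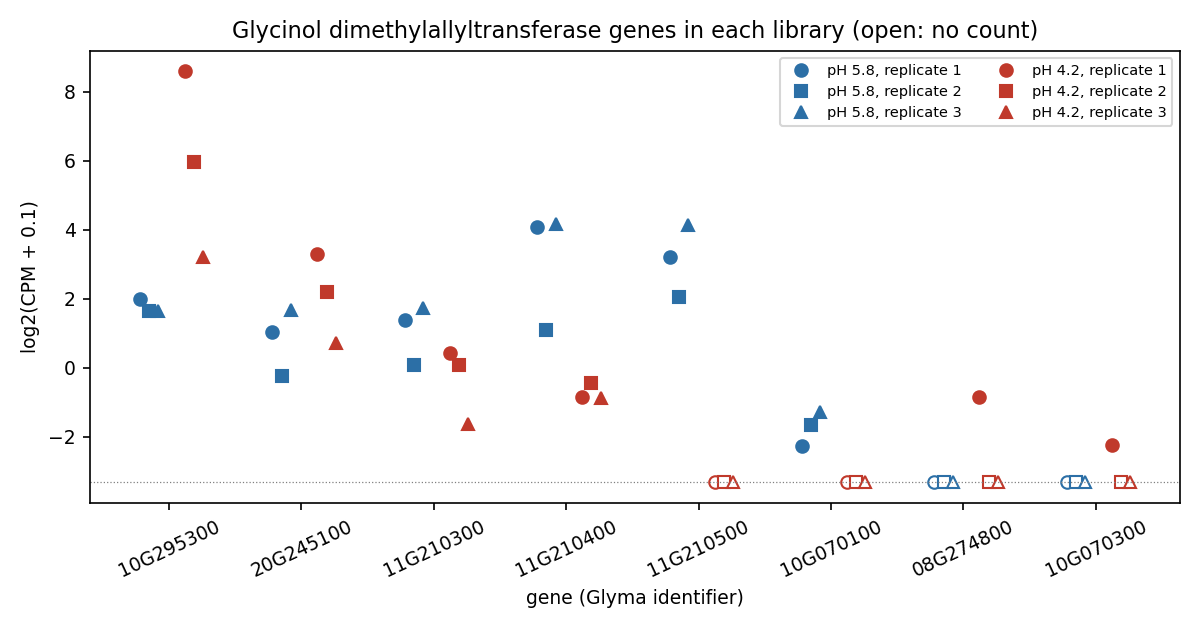
Level of each of the 8 genes in each library, as log2 of CPM plus 0.1, with blue points for pH 5.8, red points for pH 4.2 and a different marker for each replicate. Open points on the dotted line are libraries with no count, and Glyma.10G295300 spreads from 9.13 to 388 CPM at pH 4.2 while its controls lie between 3.00 and 3.91 CPM.

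Of the 5 genes that passed the filter, edgeR called 1, Glyma.11G210500, beside 0.558% of all genes tested. Nothing is read from this count, because that gene was chosen by the same contrast. DESeq2, with 2.77% of all genes called, called 3 of the 5. Groups did not overlap for 3 of the 5, beside 16.4% of all genes tested, and both genes chosen by the contrast are among the 3. That call was lost when any library other than control replicate 2 was left out. Without acid replicate 1, 2 or 3, edgeR called 0, 0 and 1 of the 5 genes, beside 0.0871%, 0.0204% and 0.24% of all genes, and without control replicate 1, 2 or 3 it called 0, 2 and 0, beside 0.278%, 3.26% and 0.202%. The 2 called without control replicate 2 were Glyma.11G210400 and Glyma.11G210500, and the 1 called without acid replicate 3 was Glyma.10G295300. Since Glyma.10G295300 and Glyma.11G210500 were chosen by this contrast, their calls in any setting are a description and not a test. The calls of Glyma.11G210400 are not independent of this choice, because it shares reads with Glyma.11G210500. With the replicate number as a block 1 was called, beside 0.182%, and with both acid replicate 1 and control replicate 2 left out 2 were called, beside 2.8%. A mean count of at least 50 left 2 of the genes, of which 0 were called, beside 0.573%. Over the 6 libraries, Pearson's r of log2 CPM was 0.95 between Glyma.11G210400 and Glyma.11G210500, 0.84 between Glyma.10G295300 and Glyma.20G245100, and −0.78 between Glyma.10G295300 and Glyma.11G210500. These values describe 6 points that share the division into pH groups and, for the first pair, shared reads.

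Levels were compared between genes per length, as FPKM, which scales the fragments of a gene by its length and the library total. At pH 5.8 the order was Glyma.11G210500 with 6.73 ± 4.57, Glyma.11G210400 with 5.95 ± 4.38, Glyma.10G295300 with 2.13 ± 0.301, Glyma.11G210300 with 1.5 ± 0.779 and Glyma.20G245100 with 1.28 ± 0.800 FPKM (SD, n = 3), and neighbours in this order differed by less than the larger of their SDs. At pH 4.2 Glyma.10G295300 led with 96.1 ± 127 FPKM, followed by Glyma.20G245100 with 3.39 ± 2.61, Glyma.11G210300 with 0.543 ± 0.350 and Glyma.11G210400 with 0.240 ± 0.0458 FPKM. Glyma.10G295300 made up 96.9%, 91.2% and 80.4% of the summed FPKM of the 8 genes in acid replicates 1, 2 and 3, and 13.1%, 28.2% and 7.21% in control replicates 1, 2 and 3. These shares are made from the values by which Glyma.10G295300 and Glyma.11G210500 were chosen, and are a description. The sum was 249, 44.6 and 7.25 FPKM at pH 4.2 and 18.9, 6.88 and 27.5 FPKM at pH 5.8, and these ranges overlap. In whole roots, fewer cells that express a gene and less RNA per cell cannot be told apart.

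**Figure D2:**
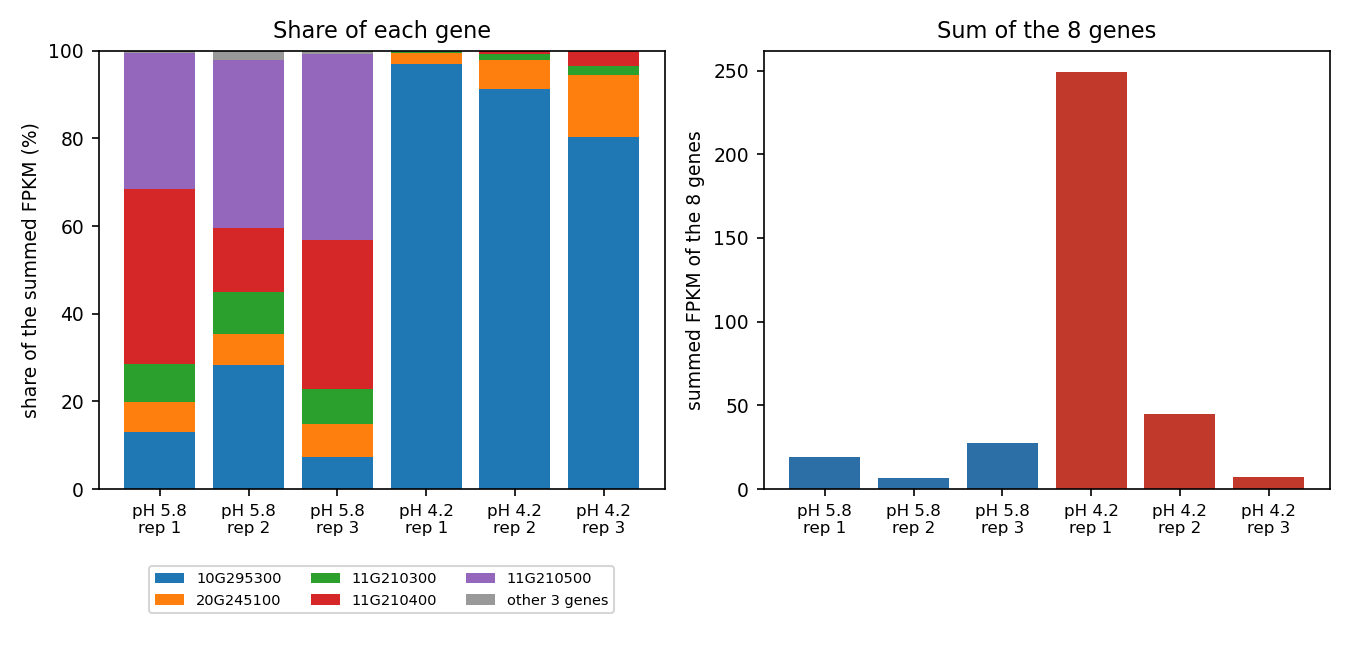
Left, share in percent of each gene in the summed FPKM of the 8 genes, stacked by library. Right, the sum in FPKM by library, where acid replicate 1 reaches 249 and acid replicate 3, at 7.25, lies among the controls although Glyma.10G295300 still holds 80.4% of it.

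Genes beside them on the chromosome, were taken by identifier, with 5 on either side of Glyma.10G295300 and of Glyma.11G210500. Around the PT11 genes, Glyma.11G210100, a TFIID subunit, had a log2 fold change of 0.14, and Glyma.11G210700, a cytoplasmic lysine tRNA ligase, 0.45, and neither was called. Outside the members, the tested neighbours there ranged from −0.76 for Glyma.11G210000 to 0.45 for Glyma.11G210700. The tested neighbours of Glyma.10G295300 ranged from −0.59 for Glyma.10G295800 to 0.59 for Glyma.10G295400, and none was called. The gene next to it, Glyma.10G295200, a hypothetical protein that did not pass the filter, had 50, 15 and 2 counts in acid replicates 1, 2 and 3 and 1, 1 and 7 in control replicates 1, 2 and 3. Its acid-treated libraries thus had the same order as those of Glyma.10G295300, an order found in 22.5% of all genes tested. Whether reads of these neighbours overlap was not tested. Glyma.10G070200, annotated as a homogentisate phytyltransferase and lying by identifier between Glyma.10G070100 and Glyma.10G070300, was picked out after its values were seen. It had 2.94, 3.71 and 2.34 CPM at pH 4.2 and 28.7, 1.61 and 51.4 CPM at pH 5.8, with control replicate 2 below all acid-treated libraries (log2 fold change −3.18, edgeR's adjusted p = 0.214). Without control replicate 2 the log2 fold change was −3.73 and was called (adjusted p = 0.00329).

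**Figure D3:**
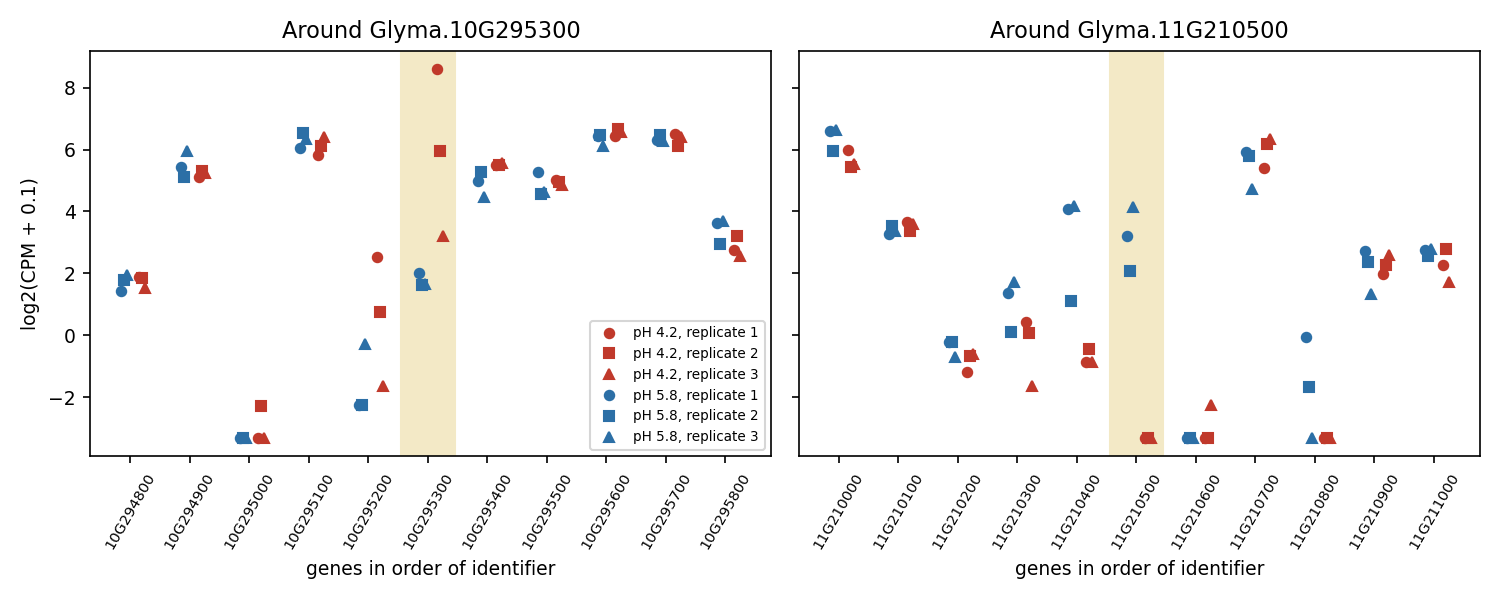
Levels of the genes around Glyma.10G295300 (left) and Glyma.11G210500 (right), in order of identifier, as log2 of CPM plus 0.1 for each library. The shaded gene is the one named in the title, and the other tested genes outside the PT11 group have log2 fold changes between −0.76 and 0.59.

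The earlier steps of the glyceollin route were followed in 92 genes listed by annotation, of which 65 passed the filter. edgeR called 0 of the 65, while 21 were higher and 4 lower at an unadjusted p under 0.05, beside 4.21% and 7.61% of all genes tested. DESeq2 called 11 higher and 1 lower among the 77 to which it gave an adjusted p, beside 1.22% and 1.55% of all genes. The log2 fold change was positive in 47 and negative in 18, with a median of 0.63 beside −0.0027 over all genes tested. Without acid replicate 1 the median was 0.13. At an unadjusted p under 0.05, 9 of 66 were then higher and 6 lower, beside 3.49% and 7.64% of all genes. Of 69 without control replicate 1, 14 were higher and 9 lower, beside 4.97% and 7.38%. Of 68 without control replicate 3, 10 were higher and 2 lower, beside 3.55% and 4.4%. Without acid replicate 2 the counts were 22 and 3 of 67, beside 2.86% and 4.46%. Without acid replicate 3 they were 29 and 3 of 68, beside 3.6% and 4.86%. Without control replicate 2 they were 16 and 4 of 69, beside 7.5% and 11.3%. Acid replicate 1 was the highest acid-treated library in 54 of the 65 (83.1%), beside 37.4% of all genes tested.

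The steps are described in turn, with no test between them. Chalcone synthase, which makes the chalcone skeleton, had 11 of 12 tested genes with a positive log2 fold change and a median of 2.03 (0.81 without acid replicate 1), and in 7 of the 12 all acid-treated libraries lay above all controls, beside 7.17% of all genes tested. Its most abundant gene, Glyma.01G228700, had 1120, 668 and 571 CPM at pH 4.2 and 238, 467 and 321 CPM at pH 5.8. The log2 fold change of this gene was 1.20 (adjusted p = 0.251 with edgeR and 0.0204 with DESeq2). DESeq2 called 6 of 14 chalcone synthase, 1 of 5 chalcone reductase and 1 of 6 chalcone isomerase genes higher, beside 1.22% of all genes. The most abundant genes for chalcone reductase, Glyma.18G285800, and chalcone isomerase, Glyma.20G241500, had log2 fold changes of 1.02 and 0.996 without a call. Without acid replicate 1 they were 1.05 and 0.43. Without control replicate 2, Glyma.18G285800 had a log2 fold change of 1.63 and was called (edgeR's adjusted p = 0.0292). The most abundant genes of the general phenylpropanoid and isoflavone steps were nearer to 0 or negative, but they do not stand for all genes of a step. Step medians were 0.66 for phenylalanine ammonia-lyase, 0.24 for cinnamate hydroxylase and −0.32 for coumarate CoA ligase. They were 0.86 for isoflavone synthase and 0.017 for isoflavone reductase. The cinnamate hydroxylase and isoflavone synthase medians each cover 2 tested genes with opposite signs. Those with a positive log2 fold change, named after their values were seen, were Glyma.14G205200 and Glyma.13G173500. Glyma.14G205200, the cinnamate hydroxylase, had 240, 182 and 191 CPM at pH 4.2 and 127, 6.01 and 156 CPM at pH 5.8. Glyma.13G173500, the isoflavone synthase, had 1023, 211 and 65.8 CPM at pH 4.2 and 145, 83.3 and 159 CPM at pH 5.8. Without acid replicate 1 the medians of phenylalanine ammonia-lyase and isoflavone synthase were 0.020 and −0.016. The log2 fold changes were 0.36 for the phenylalanine ammonia-lyase Glyma.13G145000, −0.61 for the cinnamate hydroxylase Glyma.02G236500, 0.12 for the coumarate CoA ligase Glyma.14G223200 and −0.037 for the isoflavone synthase Glyma.07G202300, with none called. Without acid replicate 1 these were 0.020, −0.92, −0.055 and −0.14 in the same order. With all libraries the log2 fold change was 0.75 (0.11 without acid replicate 1) for the hydroxyisoflavanone dehydratase Glyma.01G239600. It was −0.30 for the isoflavone reductase Glyma.04G012300 and 0.41 for the vestitone reductase Glyma.19G254700, also with none called.

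Dihydroxypterocarpan 6a-hydroxylase, the enzyme that makes glycinol, acts just before the prenyltransferase. Its 2 genes had all acid-treated libraries above all controls, beside 7.17% of all genes tested. Glyma.03G143700 had 217, 30.2 and 3.01 CPM at pH 4.2 and 2.61, 1.18 and 2.50 CPM at pH 5.8 (log2 fold change 5.31, adjusted p = 0.151 with edgeR and 0.00833 with DESeq2). Its log2 fold change was 2.99 without acid replicate 1, and without acid replicate 3 it was 5.88 and was called (edgeR's adjusted p = 0.0481). Glyma.19G146800, named after its values were seen, had 25.6, 4.46 and 2.45 CPM against 1.30, 0.965 and 0.833 CPM. Its log2 fold change was 3.37, or 1.73 without acid replicate 1 (adjusted p over all libraries 0.161 with edgeR and 0.00118 with DESeq2). In both, as in Glyma.10G295300, acid replicate 1 was far above acid replicate 3.

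Isoflavone hydroxylation is an earlier step, with 6 genes tested and 0 called by edgeR, beside 0.558% of all genes tested. At edgeR's unadjusted p under 0.05, 2 were higher and 2 lower, beside 4.21% and 7.61%. The step had 8 genes with an adjusted p from DESeq2, which called 1 in each direction, beside 1.22% higher and 1.55% lower. Glyma.09G049100, its most abundant gene, had 219, 128 and 73.8 CPM at pH 4.2 and 635, 176 and 812 CPM at pH 5.8, with control replicate 2 low (log2 fold change −1.95, adjusted p = 0.228 with edgeR and 0.0117 with DESeq2). Without control replicate 2 the log2 fold change was −2.36 and was called (edgeR's adjusted p = 0.0343). Glyma.15G156100, named after its values were seen, had 183, 14.0 and 0.334 CPM at pH 4.2 and 0.543, 0.215 and 1.35 CPM at pH 5.8. Its log2 fold change was 6.51, or 3.33 without acid replicate 1 (adjusted p over all libraries 0.190 with edgeR and 0.0164 with DESeq2). Its groups overlapped, because acid replicate 3 was within the range of the controls.

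**Figure D4:**
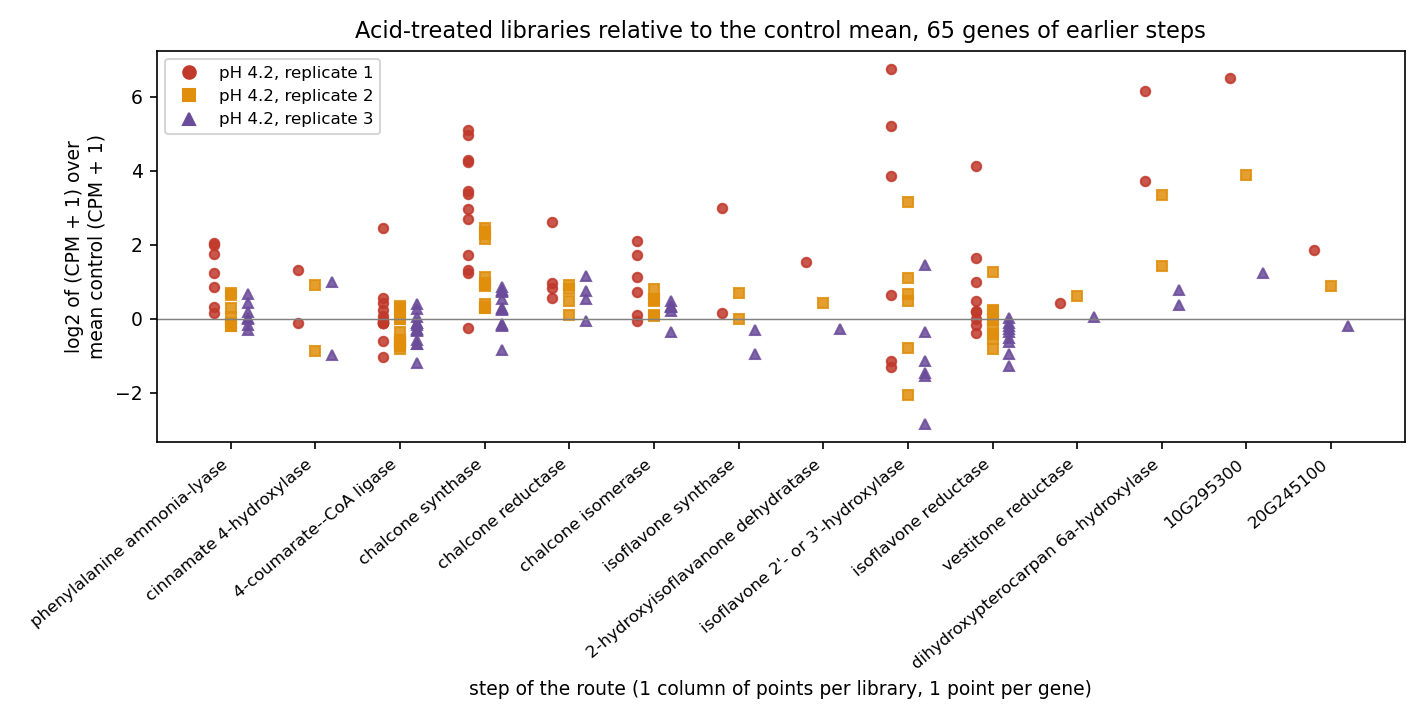
For each of the 65 tested genes of the earlier steps, and for Glyma.10G295300 and Glyma.20G245100, log2 of CPM plus 1 in each acid-treated library over the control mean plus 1, by step in the order of the route. Red circles (acid replicate 1) reach highest for the isoflavone hydroxylases, 6a-hydroxylase and Glyma.10G295300, and purple triangles (acid replicate 3) lie near 0 for most genes.

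The ratio of acid replicate 1 to acid replicate 3, computed on CPM plus 1, had a median of 0.992 over all genes tested and was 38.4 for Glyma.10G295300. Its median was 20.5 for 6a-hydroxylase, 9.63 for the isoflavone hydroxylases, 7.51 for chalcone synthase and 4.58 for isoflavone synthase, but 1.14 for coumarate CoA ligase and 1.31 for vestitone reductase. The cause of the spread among acid-treated libraries was not tested.

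The dimethylallyl donor comes from the plastid methylerythritol phosphate route and the cytosolic mevalonate route. Of 37 genes listed for them, 33 were tested and edgeR called 0, with 3 higher and 2 lower at an unadjusted p under 0.05, beside 4.21% and 7.61% of all genes tested. DESeq2 called 1 of 35, beside 2.77% of all genes. This was Glyma.08G277100, a deoxyxylulose phosphate synthase named after its values were seen, with 10.5, 7.64 and 6.23 CPM at pH 4.2 and 34.0, 8.58 and 74.2 CPM at pH 5.8. Without control replicate 2 edgeR called it too (log2 fold change −2.73, adjusted p = 0.012). The median log2 fold change of the list was 0.18, beside −0.0027 over all genes tested. The most abundant gene of each step ranged from −1.003 for the phosphomevalonate kinase Glyma.04G237000 to 0.64 for the reductoisomerase Glyma.05G037500. Other prenyltransferases of the UbiA family, which act on homogentisate, hydroxybenzoate, chlorophyllide or heme, numbered 10, of which 7 were tested. edgeR called 0 of the 7, with 1 higher and 1 lower at an unadjusted p under 0.05, beside the same 4.21% and 7.61%, and DESeq2 called 0 of 10, beside 2.77%. The median log2 fold change was 0.16, beside −0.0027 over all genes tested, and −0.049 without acid replicate 3.

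Among all tested genes, those whose log2 CPM over the 6 libraries was most like that of Glyma.10G295300 were sought, as a description of 6 points that share the pH groups. They were the chalcone synthase gene Glyma.01G091400 (Pearson's r = 0.999), Glyma.01G086900 for allene oxide cyclase of jasmonate synthesis (r = 0.996), Glyma.07G243500 for the stress-induced protein SAM22 (r = 0.994), the UDP-glycosyltransferase gene Glyma.11G225600 (r = 0.993) and the peroxisomal dehydrogenase/reductase gene Glyma.17G009400 (r = 0.991). SAM22 belongs to the pathogenesis-related proteins, and Glyma.07G243500 had 1012, 161 and 20.5 CPM at pH 4.2 and 4.34, 4.61 and 2.81 CPM at pH 5.8. Glyma.01G091400 had 45.1, 6.47 and 1.34 CPM at pH 4.2 and 0.434, 0.322 and 0.312 CPM at pH 5.8, the same order of acid-treated libraries, and its log2 fold change was 5.58, or 3.42 without acid replicate 1. A high r does not mean a similar size, since Glyma.11G225600 had a log2 fold change of 0.29 and Glyma.17G009400 of 0.28.

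The genes most like Glyma.11G210500 were the WAT1-related transporter gene Glyma.06G112200 (r = 0.9996), the uncharacterized gene Glyma.08G122200 (r = 0.998), the leucine-rich repeat receptor kinase genes Glyma.15G021900 (r = 0.998) and Glyma.15G021800 (r = 0.997), and the TGA1-like transcription factor gene Glyma.05G182500 (r = 0.996). Glyma.15G021800 had 2.26, 2.33 and 2.56 CPM at pH 4.2 and 98.4, 33.5 and 151 CPM at pH 5.8. As for Glyma.11G210500, its groups did not overlap and control replicate 2 was the lowest control.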

How the data were processed

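RNA of soybean roots was measured in 6 libraries. For the deposited files, the authors mapped filtered reads to the build Williams82.a2.v1 (HISAT), assembled transcripts (StringTie) and mapped again to the extended reference (Bowtie2); versions are not given in the sources used here. The deposited expected counts, not normalized, and the deposited FPKM, scaled by length and library total, came from RSEM. Between 85.7% and 87.2% of the expected counts in a library were whole. The gene length deposited by the authors was read only as a description. Genes not listed in a library were set to 0.

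Expected counts were rounded and tested with edgeR 4.0.16 in R 4.3.3 (filterByExpr, TMM, robust quasi-likelihood fit, Benjamini-Hochberg adjustment over all genes tested). A call needed a change of 2-fold or more and an adjusted p-value below 0.05. CPM used TMM library sizes. DESeq2 1.42.0, the study's tool, was an alternative, as were RLE size factors, no filter, a mean count of at least 50, the replicate block, TPM, and each library left out. The fits were first tested on simulated data. A log2 fold change above 0 means a higher level at pH 4.2.

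Named are all members, in each step of a list each called gene or else the most abundant, the 5 genes most alike to each gene given by identifier (log2 CPM with a prior count of 1), and neighbours by identifier. The donor and UbiA genes that this rule takes are given as a range or as counts. Members and lists were chosen with earlier results of these data known. Gene lists were matched by words in the deposited annotation, and the ligase list includes related genes. RefSeq symbols come from a table of Glycine_max_v4.0, another assembly than the authors', so no coordinates are given. Python 3.11.15 with pandas 2.3.3, numpy 2.4.6 and matplotlib 3.10.9 made tables and plots.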

Additional observations from a re-analysis of the deposited data

How the results depend on the processing

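Over all genes, 187 calls became 1060 with DESeq2, 323 without the filter on low counts and 61 with the replicate block, and 7 to 1122 when a library was left out. Replicate numbers did not pair the libraries: deviations of same-numbered libraries correlated at −0.13, −0.061 and −0.36. Of the prenyltransferases, 1 was called in the block fit too, 3 with DESeq2, 0 of the 2 that passed a mean count of at least 50, and 0 to 2 when a library was left out. These counts include Glyma.10G295300 and Glyma.11G210500, which were chosen by this contrast, and are a description. Calls among earlier steps numbered 12 of 77 with DESeq2, beside 2.77% of all genes, and 0 to 3 of 66 to 69 with a library left out. Donor genes had 1 of 35 with DESeq2 and 0 to 1 of 33 to 34 with a library left out. UbiA genes had 0 to 1 of 7 to 9 with a library left out. The highest of these counts in each list came without control replicate 2, where 3.26% of all genes were called. With acid replicate 1 and control replicate 2 both left out, an alternative added after seeing the data like the medians of lists and steps, 951 genes (2.8%) were called. They included 2 of 5 prenyltransferases, 2 of 65 genes of earlier steps, 1 of 33 donor genes and 1 of 9 UbiA genes. The log2 fold change turned in sign for Glyma.14G223200 (−0.039) and Glyma.01G239600 (−0.018) in that setting, and ranged from −0.055 to 0.25 for Glyma.14G223200 and from −0.19 to 0.095 for Glyma.07G202300 when a library was left out. The log2 fold change of Glyma.10G295300 ranged from 3.43 to 6.08 and that of Glyma.11G210400 from −5.04 to −4.16. The cause of these changes was not tested. The share of Glyma.10G295300 in the summed FPKM stayed between 85.8% and 94.1% at pH 4.2 and between 10.2% and 20.7% at pH 5.8 when a library was left out. Counts near 3 per library limit Glyma.10G070100, Glyma.08G274800 and Glyma.10G070300.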
